A study of Mus musculus with 12 samples.

Results

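Primary mouse microglia treated with full-length neurofilament light chain (NfL) were compared with microglia that received vehicle alone, over all genes with enough reads for a test. The comparison rests on 8 of the study's 12 RNA libraries, 4 titled FL-NfL and 4 titled Vehicle. The other 4 libraries, treated with the coiled-coil part of NfL (CC-NfL), were kept in the same model and are set against the full-length protein at the end. Of 52636 gene identifiers listed, 14687 passed the filter on low counts, and these held 99.9% of the counts. All 3 groups were cells of wild-type C57BL/6 mice. The microglia were taken from brains of newborn pups, grown in mixed glial cultures, shaken off, and replated at 50000 per well with 2.5 ng of the growth factor CSF1. They then received vehicle or 5 µg of protein for 24 h. The replicate number of a library is its batch, so each of 4 batches held 1 library of every group, and the model took the batch as a block. Because no label tells whether batches were separate litters or cultures, p-values measure only the spread between these samples, which may be technical. A culture started from pups, kept in serum and fed CSF1 is a limited model of microglia in an adult brain.

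NfL is a subunit of the filaments that fill axons, and it appears in tissue fluid when axons break. Microglia are the macrophages of the brain, able to take up such debris and to answer it with secreted proteins. A macrophage that meets a stimulus commonly alters how it makes, folds, sorts and degrades proteins, as well as its cytoskeleton, metabolism and surface receptors. The classes described below follow those routes: synthesis and degradation of protein, the secretory and endocytic routes, the cytoskeleton, mitochondria and metabolism, signalling receptors, and the nucleus.

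Total counts of the 8 libraries ran from 21370879 to 29513940. The level of a gene is given as CPM, its counts relative to the library's total after scaling by TMM factors, without correction for transcript length. A change is the log2 fold change of full-length NfL against vehicle from edgeR's quasi-likelihood model, written as the estimate ± its standard error (SE), with 4 libraries in each group. A gene is called where its p, adjusted over all tested genes by the Benjamini-Hochberg method, lies under 0.05. The 23 tested marker genes of microglia and macrophages summed to 23105 to 26978 CPM with vehicle and to 21331 to 23815 CPM with full-length NfL. Markers of lymphocytes and granulocytes summed to at most 1.54 CPM, and 8 of the 14 listed were at 0 in all 8 libraries. Of the 23 tested microglia and macrophage markers 5 were called higher and 10 lower. Markers of other brain cells were present at low levels and their sums were lower in all 4 batches with the full-length protein. In batches 2 and 4 the TMM factors were 1.06 and 1.08 with vehicle and 0.961 and 0.985 with full-length NfL, so TMM scaling would lessen the falls there. With it, the microglia sums of batches 2 and 4 and the oligodendrocyte sum of batch 4 would be higher with full-length NfL. Other small falls may not hold either. Of the neuron markers 11 of 15 had enough reads for a test and 9 were called lower, of the astrocyte markers 11 of 12 and 9, and no marker of either list was at 0 in all 8 libraries. In batches 1 to 4 the neuron markers summed to 86.5, 105, 34.2 and 127 CPM with vehicle and to 56.4, 40.6, 21.6 and 55.0 CPM with full-length NfL. The astrocyte markers summed to 75.1, 102, 31.3 and 107 CPM with vehicle and to 53.9, 55.4, 26.9 and 58.4 CPM with full-length NfL. In bulk RNA, fewer cells of a type and less RNA per cell cannot be told apart.

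The response was broad and unequal in shape. Full-length NfL raised 3148 genes (21.4% of those tested) and lowered 3284 (22.4%), so that 43.8% of all tested genes were called. Without the batch block 2062 were higher and 1594 lower. The rises were mostly small and lay in abundant genes: 67.2% of the higher genes moved by under 1.5-fold, their median log2 change was 0.44, and their median level was 43.5 CPM. The falls were larger and lay in scarcer genes. Of the lower genes, 43.3% moved by under 1.5-fold, the median log2 change was -0.67, and the median level was 12.3 CPM. A change of at least 2-fold was called in 397 higher and 851 lower genes. The direction was the same in all 4 batches for 2989 of the higher and 3103 of the lower genes.

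The balance of the RNA pool shifted with these calls. The genes called higher held 26.8% to 29.7% of all counts of a library with vehicle and 38.4% to 42.8% with full-length NfL. The genes called lower held 28.1% to 31.2% with vehicle and 18.3% to 20.2% with the protein. These shares describe the selected genes and carry no test. Transcripts of the lower genes were longer, with a median of 4201 bases against 2813 in the higher genes and 2994 in genes not called. With the trend of counts on GC content and length together removed per library, 4139 genes were higher and 2593 lower, which put 61.5% of the calls on the higher side in place of 48.9%.

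**Figure D1:**
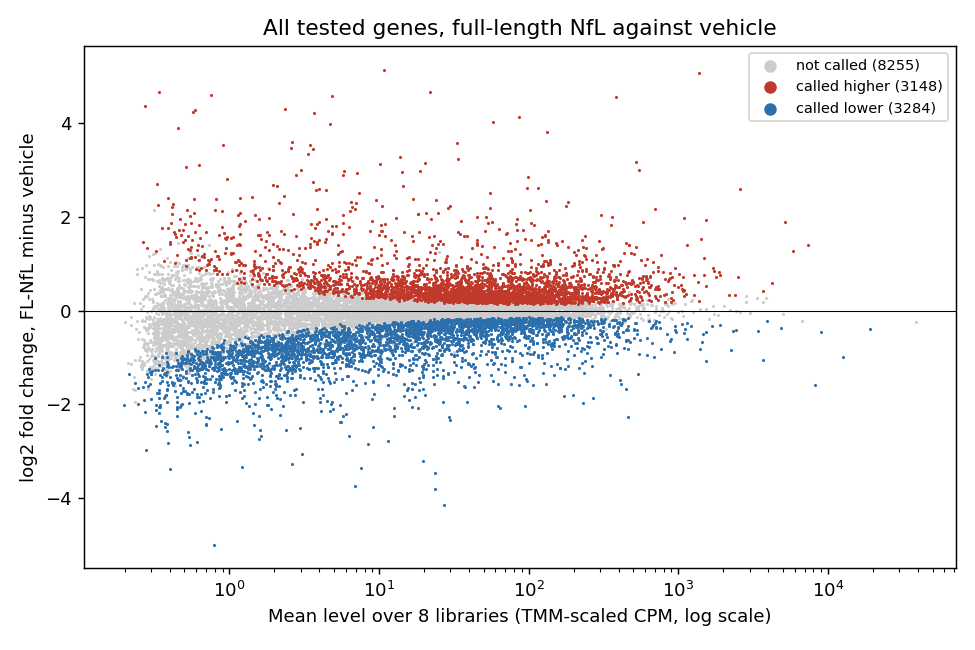
Log2 fold change of full-length NfL against vehicle (vertical axis) plotted on the mean level over the 8 libraries (horizontal axis, TMM-scaled CPM on a log scale), with 1 point per tested gene. The 3148 genes called higher are red and crowd at moderate to high levels close to the zero line, and the 3284 called lower are blue and extend to low levels.

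Among protein-coding genes of at least 20 CPM, leaving out genes already described from these data, the 12 largest rises were those of Fgl2, Klra2, Marco, Lox, Ccl2, Ms4a4c, Saa3, Slamf7, Slfn1, Fpr1, Pilra and Fpr2, and in 8 of the 12 the libraries of the groups did not overlap. Across all tested genes, 14.5% were higher and 11.4% lower without overlap. Fgl2, which encodes a secreted and membrane-bound relative of fibrinogen, stood at 55.0, 100.2, 243 and 52.9 CPM in vehicle replicates 1 to 4 and at 489, 1062, 1063 and 1075 CPM with full-length NfL. Replicate 1 was the lowest treated library, yet it lay above the highest vehicle library. The log2 change was 3.17 ± 0.37 (adjusted p = 0.00012). The gene lies at chromosome 5, 21372642 to 21378374 (GRCm38). Marco, a scavenger receptor for particles and bacteria, had 461, 26.9, 123 and 43.4 CPM with vehicle and 1734, 494, 945 and 538 CPM with the protein. The vehicle libraries of Marco spread widely and the groups stayed apart by a small margin, with a log2 change of 3.01 ± 0.43 (adjusted p = 0.000313). Saa3, an acute-phase serum amyloid made by macrophages, had 1915, 289, 822 and 341 CPM with vehicle and 6263, 3799, 4274 and 2935 CPM with full-length NfL. All 4 treated libraries were above all vehicle libraries, and the log2 change was 2.59 ± 0.43. In Marco and Saa3 alike, vehicle replicate 1 was the highest of its group and replicate 2 the lowest.

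Receptors for formylated peptides, which guide phagocytes to bacterial and mitochondrial debris, rose as a pair. Fpr1 stood at 83.7, 24.1, 53.9 and 21.1 CPM with vehicle and at 223, 216, 209 and 215 CPM with full-length NfL, and Fpr2 at 38.7, 11.5, 26.0 and 7.35 and 97.5, 86.4, 92.9 and 81.6 CPM. The treated values of both genes were close to one another while the vehicle values varied, and no library overlapped. Their log2 changes were 2.34 ± 0.35 and 2.19 ± 0.39. Ccl2, the chemokine that draws monocytes, rose by 2.63 ± 0.31 on the log2 scale with 1 treated library at the level of the highest vehicle library. Slamf7 and Slfn1, a self-ligand receptor of activated leukocytes and a member of the Schlafen family, rose by 2.52 ± 0.35 and 2.36 ± 0.32, also with overlap. Pilra, an inhibitory receptor with a paired activating partner, rose by 2.23 ± 0.37. Klra2 and Ms4a4c, members of families with many similar copies whose reads may be shared, rose by 3.15 ± 0.25 and 2.62 ± 0.41. Lox, the enzyme that cross-links collagen, rose by 2.86 ± 0.36.

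Sequence upstream of the RefSeq start of 4 of these genes is shown because the letters of 2 response elements stand in them. For Slamf7 the RefSeq start lies inside the span of the gene in the other annotation used here, GENCODE M21 (chromosome 1, 171632403 to 171653035), downstream of its 5′ end. For Fgl2 the RefSeq start lies just inside the GENCODE span given above, and so do the AP-1 letters before it. Which start these cells use was not tested for either gene. The search took RefSeq windows of GRCm38.p6 that run from 250 bases before to 50 after the start of a gene, the first listed where a gene has several, on both strands. A window was found for 10 of the 12 largest rises, and for 10242 of the tested genes. The letters of the AP-1 element, TGANTCA, the site of Fos and Jun dimers, occurred for Fgl2, Klra2 and Slamf7. The letters of the interferon-stimulated response element, GAAA and GAAA with any 2 bases between, occurred for Saa3 and Pilra. The lines give the 250 bases before the start, 5′ to 3′ on the strand of the gene, with the matching bases in capitals, N positions of the motif left in lower case.
Fgl2 (chr5:21372423-21372672, plus strand; AP-1 letters from base 16 before the start): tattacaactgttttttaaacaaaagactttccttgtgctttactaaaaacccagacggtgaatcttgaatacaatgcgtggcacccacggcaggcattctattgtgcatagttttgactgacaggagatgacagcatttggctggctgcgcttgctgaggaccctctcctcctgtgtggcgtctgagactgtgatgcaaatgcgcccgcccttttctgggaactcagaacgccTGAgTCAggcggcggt
Slamf7 (chr1:171649000-171649249, minus strand; AP-1 letters from base 42 before the start): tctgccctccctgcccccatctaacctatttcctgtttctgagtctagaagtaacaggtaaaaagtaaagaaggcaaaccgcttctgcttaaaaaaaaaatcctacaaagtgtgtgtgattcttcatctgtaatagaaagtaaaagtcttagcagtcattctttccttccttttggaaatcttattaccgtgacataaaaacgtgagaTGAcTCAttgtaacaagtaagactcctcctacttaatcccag
Saa3 (chr7:46715677-46715926, minus strand; interferon-element letters from base 125 before the start): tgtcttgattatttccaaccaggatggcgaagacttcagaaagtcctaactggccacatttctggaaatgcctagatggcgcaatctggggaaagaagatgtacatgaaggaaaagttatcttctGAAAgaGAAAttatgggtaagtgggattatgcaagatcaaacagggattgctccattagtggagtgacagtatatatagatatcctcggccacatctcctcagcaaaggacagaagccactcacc
Pilra (chr5:137836279-137836528, minus strand; interferon-element letters from base 178 before the start): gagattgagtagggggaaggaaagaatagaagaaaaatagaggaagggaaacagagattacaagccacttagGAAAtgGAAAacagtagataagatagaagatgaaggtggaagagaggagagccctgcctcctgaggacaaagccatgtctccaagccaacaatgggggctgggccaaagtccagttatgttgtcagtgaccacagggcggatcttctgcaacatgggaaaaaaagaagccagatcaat

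Across gene sets the shares of windows with these letters differed. AP-1 letters occurred in 12.6% of 286 windows of genes raised at least 2-fold, 6.07% of all higher genes, 4.54% of lower genes, 4.91% of tested genes and 7.33% of all 20298 windows. The interferon-stimulated letters occurred in 10.8% of the windows of genes raised at least 2-fold and in 3.25% of those tested. They occurred in 37.1% of 35 windows of cytosolic nucleic acid sensors and in 11.6% of 43 windows of proteasome genes. Letters of the antioxidant response element, TGAC and GCA with any 3 bases between, which can coincide with AP-1 letters, occurred in 4.65% of the proteasome windows against 2.60% of tested genes. These shares are descriptions without a test, and a match of letters does not show that a factor binds.

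Under the same limits, genes already described left out, the 12 largest falls were those of Gpr183, Ephx1, Hpgd, Cd28, Emp1, Entpd1, Cd9, Kctd12b, Adssl1, Plxdc2, Rasgrp3 and Rcbtb2, and the groups did not overlap in any of the 12. Hpgd, the enzyme that inactivates prostaglandin E2, stood at 624, 789, 742 and 888 CPM with vehicle and at 155, 128, 195 and 168 CPM with full-length NfL. Every treated library was far below every vehicle library, and the log2 change was -2.26 ± 0.17 (adjusted p = 2.73e-05). The gene lies at chromosome 8, 56294585 to 56321043. Gpr183, a receptor for oxysterols that steers cell migration, fell from 36.2, 52.7, 45.3 and 63.5 CPM to 14.6, 6.23, 9.50 and 10.8 CPM, a log2 change of -2.33 ± 0.25. Ephx1, the microsomal epoxide hydrolase, fell (log2 change -2.26 ± 0.21). Entpd1, the ectoenzyme CD39 that breaks down extracellular ATP, had 93.8, 89.3, 109.8 and 105 CPM with vehicle and 31.9, 16.9, 30.2 and 21.7 CPM with the protein. The vehicle libraries of Entpd1 were tightly grouped, and its log2 change was -2.04 ± 0.15. Cd9, a tetraspanin, changed by -1.97 ± 0.18, and Cd28, best known as a costimulatory receptor of T cells, by -2.07 ± 0.21. Adssl1, an enzyme of AMP synthesis, changed by -1.94 ± 0.18, and Rasgrp3, a diacylglycerol-gated activator of Ras and Rap, by -1.81 ± 0.18. Emp1, Kctd12b, Plxdc2 and Rcbtb2 changed by -2.04, -1.94, -1.86 and -1.81.

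**Figure D2:**
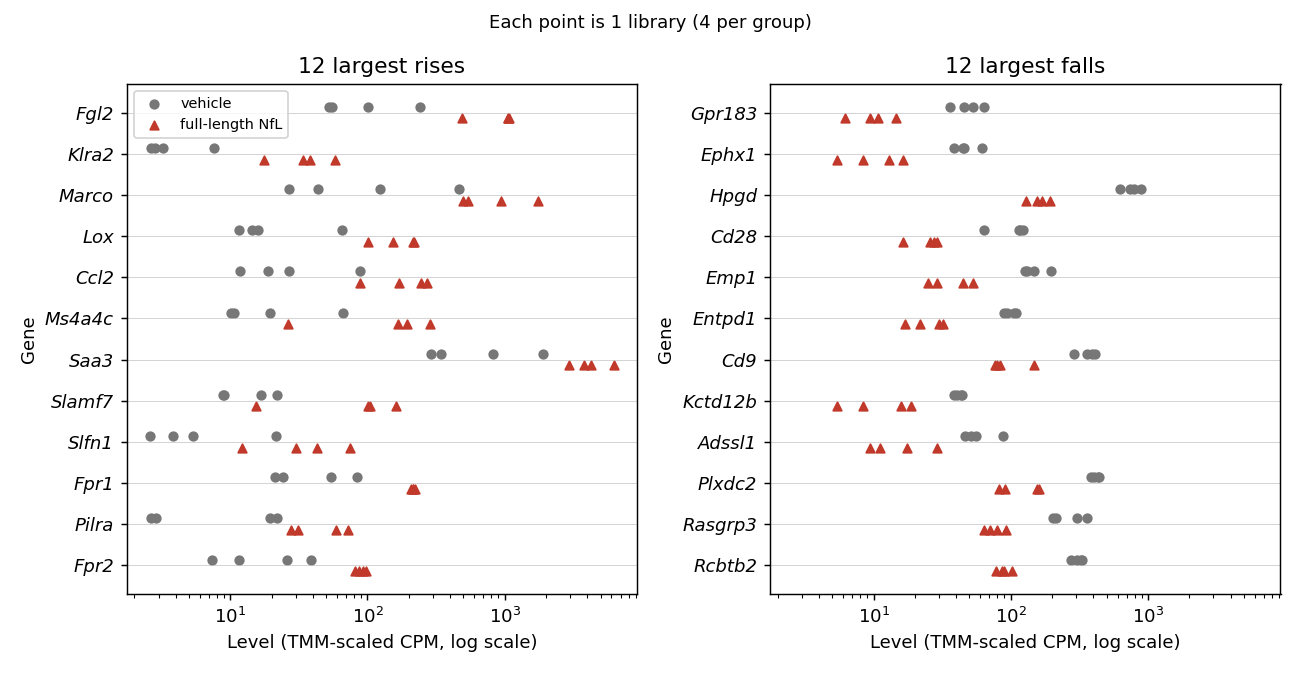
Level of the 12 largest rises (left) and 12 largest falls (right) in each library (horizontal axis, TMM-scaled CPM on a log scale), with vehicle as grey circles and full-length NfL as red triangles, 4 libraries each. The groups stay apart for all 12 falls and for 8 of the 12 rises, and vehicle libraries of the rises spread more than those of the falls.

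Genes of protein degradation by the proteasome rose together. The proteasome is a barrel of proteolytic subunits capped by a regulatory particle that unfolds proteins tagged with ubiquitin. Of 52 tested subunits and assembly factors, 45 were higher and 0 lower, against 21.4% higher and 22.4% lower among all tested genes. The median log2 change was 0.53, beside -0.020 over all genes, and the medians within batches 1 to 4 were 0.43, 0.71, 0.35 and 0.66. Psmd14, the deubiquitinase of the cap, stood at 49.8, 53.2, 58.7 and 54.7 CPM with vehicle and at 78.5, 118, 99.6 and 109 CPM with full-length NfL. Both groups were tight and far apart, with a log2 change of 0.89 ± 0.080 (adjusted p = 4.1e-05). The gene lies at chromosome 2, 61711694 to 61800376. Psma6, a subunit of the barrel, rose by 0.88 ± 0.085, and Psmc2, an ATPase of the cap, by 0.73 ± 0.079. The groups did not overlap in 40 of the 52 genes, all higher, against 14.5% of all tested genes that were higher without overlap. Nfe2l1, the transcription factor known for driving proteasome genes, rose from 245 ± 18.1 to 502 ± 137 CPM (SD, n = 4), a log2 change of 0.98 ± 0.15. Vcp, the segregase that pulls ubiquitinated proteins out of membranes and complexes, rose by 0.69 ± 0.073.

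Ubiquitin ligase adaptors were more often lower. Of 66 F-box proteins and cullins, which choose and hold the substrates of ligases, 24 were lower and 5 higher, with a median of -0.12 that turned to 0.021 once the trend on GC content and length was removed. Fbxl20 changed by -0.87 ± 0.079 and Fbxo32, the atrogin ligase of wasting muscle, by -1.29 ± 0.18. Rnf144b, a ligase of the RING-between-RING type, changed by -1.56 ± 0.14, from 93.3 ± 18.3 to 31.3 ± 4.32 CPM (SD, n = 4). Among ubiquitin-conjugating enzymes, Ube2m, which charges the cullin modifier NEDD8, rose by 0.71 ± 0.080.

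The chaperonin CCT, a ring that folds actin and tubulin, and its helper prefoldin had 11 of 17 members higher and 1 lower, with a median of 0.33. Cct8, Cct3 and Tcp1, all ring subunits, rose by 0.55 ± 0.063, 0.62 ± 0.081 and 0.46 ± 0.059. Of 75 heat shock proteins and their partners, 26 were higher and 8 lower (median 0.14). Hsp90ab1, the constitutive cytosolic HSP90, rose by 0.71 ± 0.088, and Stip1, which links HSP70 to HSP90, by 0.65 ± 0.068.

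Genes of translation were more often higher than lower. Aminoacyl-tRNA synthetases, which load amino acids onto tRNA, had 21 of 40 members higher and 1 lower, with a median of 0.32. Aars, the alanine enzyme, stood at 139, 169, 145 and 140.4 CPM with vehicle and at 300.0, 663, 349 and 468 CPM with full-length NfL. No treated library reached down to a vehicle library, and its log2 change was 1.50 ± 0.17 (adjusted p = 0.000113). Cars and Yars, for cysteine and tyrosine, rose by 0.98 ± 0.11 and 0.86 ± 0.10. Of 58 initiation factors, 26 were higher and 7 lower (median 0.22). Eif4e, which binds the cap of the messenger, rose by 0.58 ± 0.068, Eif4g2, a scaffold for cap-independent initiation, by 0.77 ± 0.077, and Eif2s1, the subunit phosphorylated under stress, by 0.51 ± 0.063. Eif4ebp2, which holds Eif4e inactive, fell (log2 change -0.62 ± 0.066). Ribosome biogenesis in the nucleolus had 61 of 114 genes higher and 4 lower, with a median of 0.26, and without the batch block 39 were higher and 1 lower. Rrp12 and Nop14, which act in the small subunit's assembly, rose by 0.91 ± 0.11 and 0.48 ± 0.063.

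One-carbon and serine metabolism had 11 of 24 members higher and 4 lower, with a median of 0.28. Mthfd2, a mitochondrial folate enzyme, stood at 35.9, 48.0, 40.8 and 38.0 CPM with vehicle and at 88.0, 212, 127 and 144 CPM with the protein, a log2 change of 1.73 ± 0.18. Its partner Shmt2 rose by 0.80 ± 0.094. Asns, which makes asparagine, had 16.8, 30.1, 16.5 and 22.6 CPM with vehicle and 40.7, 157, 61.6 and 84.9 CPM with full-length NfL. In both enzymes all treated libraries were above all vehicle libraries, and Asns rose by 1.87 ± 0.17 (adjusted p = 4.2e-05). Aldh18a1, a step of proline synthesis, rose by 1.14 ± 0.13. Glul, which makes glutamine, fell from 445 ± 66.7 to 265 ± 77.2 CPM (SD, n = 4). Amino acid and polyamine metabolism as a whole had 9 of 40 members higher and 9 lower (22.5% each), near the 21.4% and 22.4% of all tested genes. Asns, Mthfd2, Shmt2, Aldh18a1 and Aars are known targets of the amino acid and unfolded protein stress factor ATF4, as is Ddit3, the stress factor CHOP. Ddit3 rose by 1.71 ± 0.21, with libraries at 12.6, 24.5, 31.8 and 21.4 CPM with vehicle and 29.2, 129, 76.4 and 86.6 CPM with full-length NfL, which overlapped.

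Many genes of the early secretory route were higher by small steps. That route translocates new proteins into the endoplasmic reticulum, adds sugars and ships them in coated vesicles. Together with SNARE proteins and the genes of ER-associated degradation, its classes had 75 of 182 members higher and 14 lower. The translocon and signal peptidase had 13 of 24 higher and 1 lower, N-glycosylation 15 of 36 and 1, the COPII coat 13 of 28 and 1, and the COPI coat and Golgi 12 of 30 and 1. Their medians were 0.18, 0.17, 0.15 and 0.13, and each was above 0 in every batch. Rpn1, of the complex that attaches the sugar, rose by 0.53 ± 0.073, Srp72 of the signal recognition particle by 0.52 ± 0.066, Sec24d, a cargo selector of COPII, by 0.67 ± 0.093, and Copg1 of COPI by 0.44 ± 0.061. Xbp1, the factor of the unfolded protein response, rose by 0.52 ± 0.076. Edem1, which directs misfolded glycoproteins to degradation, fell from 543 ± 25.5 to 353 ± 21.3 CPM (SD, n = 4), a log2 change of -0.62 ± 0.094.

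Sorting in endosomes was mixed with more rises than falls. Clathrin and its adaptors had 17 of 45 members higher and 6 lower, SNARE proteins 16 of 41 and 7, ESCRT complexes 10 of 28 and 3, and sorting nexins with retromer and tethers 21 of 62 and 9. Their medians lay between 0.10 and 0.13. Ap2m1 and Ap1s1, of the plasma membrane and Golgi adaptors, rose by 0.77 ± 0.12 and 0.64 ± 0.069, and Vti1a, a SNARE of the Golgi and endosomes, by 0.71 ± 0.066. Dab2, a cargo adaptor for lipoprotein receptors and integrins, stood at 1641, 1883, 1729 and 1892 CPM with vehicle and at 1215, 886, 1066 and 934 CPM with full-length NfL. Its groups did not overlap, and it fell (log2 change -0.82 ± 0.11) while the core coat genes named here were higher. Rab6b, a small GTPase of Golgi traffic, fell (log2 change -0.93 ± 0.085), and Rab5c of early endosomes rose by 0.61 ± 0.10.

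Actin filaments shape the ruffles and phagocytic cups of microglia. Of 61 genes of the Arp2/3 and WAVE complexes and other filament proteins, 31 were higher and 12 lower, with a median of 0.20. Tmsb4x, thymosin beta 4, which holds actin monomers, stood at 3004, 3154, 4026 and 3404 CPM with vehicle and at 6999, 9129, 7871 and 9221 CPM with full-length NfL. Treated and vehicle libraries were far apart, with a log2 change of 1.28 ± 0.11 (adjusted p = 3.5e-05). Coro1a, which coats filaments in leukocytes, and Cfl1, which severs them, rose by 0.95 ± 0.11 and 0.85 ± 0.11. Reads of Tmsb4x, Cfl1 and the tubulins may be split with near-identical copies, so their levels are uncertain. Rac2, a small GTPase of blood cells, had 279, 200.0, 324 and 203 CPM with vehicle and 1041, 1382, 965 and 1229 CPM with the protein, the groups apart, and rose by 2.18 ± 0.23. Rhog rose by 0.78 ± 0.13.

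Other genes that act on actin changed in both directions. Dock2, the Rac activator of leukocytes, rose by 0.66 ± 0.080, whereas its relative Dock6 fell (log2 change -0.78 ± 0.12). Among myosins, the motors that pull on actin, 10 of 22 members were higher and 8 lower. Myo7a rose by 0.60 ± 0.075, and Myo10, the motor of filopodia, fell (log2 change -0.90 ± 0.072).

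Tubulins and their folding factors had 10 of 23 members higher and 2 lower, with a median of 0.24. Tubb5, a beta tubulin of many tissues, stood at 389, 474, 517 and 493 CPM with vehicle and at 1093, 1085, 1011 and 1048 CPM with full-length NfL. The groups did not overlap, and the log2 change was 1.20 ± 0.12. Tubb2a and Tuba1b rose by 1.37 ± 0.12 and 1.34 ± 0.14. Kinesins, the motors that walk along microtubules, had 12 of 35 members lower and 2 higher, but only 1 lower without the batch block. Once the trend on GC content and length was removed, 6 kinesins were lower and 7 higher. The kinesin medians within batches 1 to 4 were 0.036, -0.85, -0.032 and -0.68, so that the fall stood in batches 2 and 4. Kif3a, a subunit of the motor of cilia, was the clear case, with 124 ± 12.2 CPM with vehicle, 53.9 ± 4.91 CPM with the protein (SD, n = 4) and a log2 change of -1.20 ± 0.14.

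Several classes of mitochondrial genes encoded in the nucleus were more often higher. Mitochondrial ribosomal proteins had 51 of 74 members higher and 0 lower, with a median of 0.35 and medians within batches of 0.31, 0.38, 0.24 and 0.43. Mrpl45, which anchors that ribosome to the inner membrane, had 37.1, 33.8, 40.9 and 32.2 CPM with vehicle and 53.5, 80.1, 65.7 and 76.1 CPM with the protein, without overlap, and rose by 0.92 ± 0.12. Protein import had 19 of 35 higher and 2 lower, the tricarboxylic acid cycle 17 of 34 and 2, and assembly of the respiratory chain with coenzyme Q synthesis 23 of 55 and 1. Samm50, which inserts proteins into the outer membrane, rose by 0.56 ± 0.083, Mdh2 and Cs, of the cycle, by 0.58 ± 0.073 and 0.48 ± 0.067, and Coq5, of coenzyme Q synthesis, by 0.71 ± 0.092. The share of counts from the mitochondrial genome itself was lower in each full-length library than in the vehicle library of its batch, at 0.342%, 0.210%, 0.372% and 0.299% against 0.419%, 0.400%, 0.410% and 0.518%. Pink1, the kinase that marks damaged mitochondria, stood at 87.4, 60.0, 83.4 and 70.5 CPM with vehicle and at 40.0, 28.9, 46.6 and 30.0 CPM with full-length NfL and fell (log2 change -1.06 ± 0.082) (adjusted p = 2.73e-05).

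Mitochondrial carriers, which move metabolites across the inner membrane, had 14 of 40 members higher and 5 lower (median 0.18). Slc25a10, the dicarboxylate carrier, stood at 67.2, 58.7, 67.0 and 60.6 CPM with vehicle and at 214, 197, 163 and 198 CPM with the protein. The treated libraries all lay above the vehicle libraries, and the log2 change was 1.60 ± 0.16. Slc25a23, a calcium-gated ATP and phosphate carrier, fell (log2 change -1.55 ± 0.15). Fatty acid oxidation had 8 of 34 members higher and 7 lower (23.5% and 20.6%), near the 21.4% and 22.4% of all tested genes. Acot7, which splits fatty acyl-CoA, rose from 9.52 ± 3.71 to 39.9 ± 6.34 CPM (SD, n = 4), a log2 change of 2.09 ± 0.20, and Acox3, a peroxisomal oxidase, fell (log2 change -0.75 ± 0.086). Hmox1, which breaks down heme, and Blvrb, a biliverdin reductase, rose by 1.39 ± 0.23 and 0.99 ± 0.17, Hmox1 with overlap of the groups. Bst1, which makes a calcium-releasing product from NAD, rose by 1.67 ± 0.27, also with overlap. Agpat3, of phospholipid synthesis, rose by 1.19 ± 0.090, and Lpin1, which makes diacylglycerol, fell (log2 change -1.23 ± 0.12).

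Enzymes of membrane lipids and surface sugars changed in both directions. Galc, the lysosomal galactosylceramidase that degrades myelin lipids, stood at 284, 291, 266 and 315 CPM with vehicle and at 172, 149.6, 163 and 153 CPM with full-length NfL. The groups did not overlap, and Galc fell (log2 change -0.86 ± 0.071). S1pr1, a receptor for sphingosine 1-phosphate, fell from 139 ± 8.74 to 51.7 ± 8.89 CPM (SD, n = 4), a log2 change of -1.46 ± 0.13. Of 25 sialyltransferases and fucosyltransferases, which cap surface sugars, 12 were lower and 7 higher (median -0.41), against 6 and 4 without the batch block. With the trend on GC content and length removed, 9 were lower and 8 higher. Among the 15 members of at least 20 CPM, 7 were lower and 7 higher (median 0.042). St8sia4, which builds polysialic acid, had 206, 199, 179 and 187 CPM with vehicle and 72.8, 51.8, 85.3 and 57.6 CPM with the protein and fell (log2 change -1.56 ± 0.15). St6gal1 fell (log2 change -1.22 ± 0.11), and St3gal5, which makes the ganglioside GM3, rose by 0.46 ± 0.059.

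**Figure D3:**
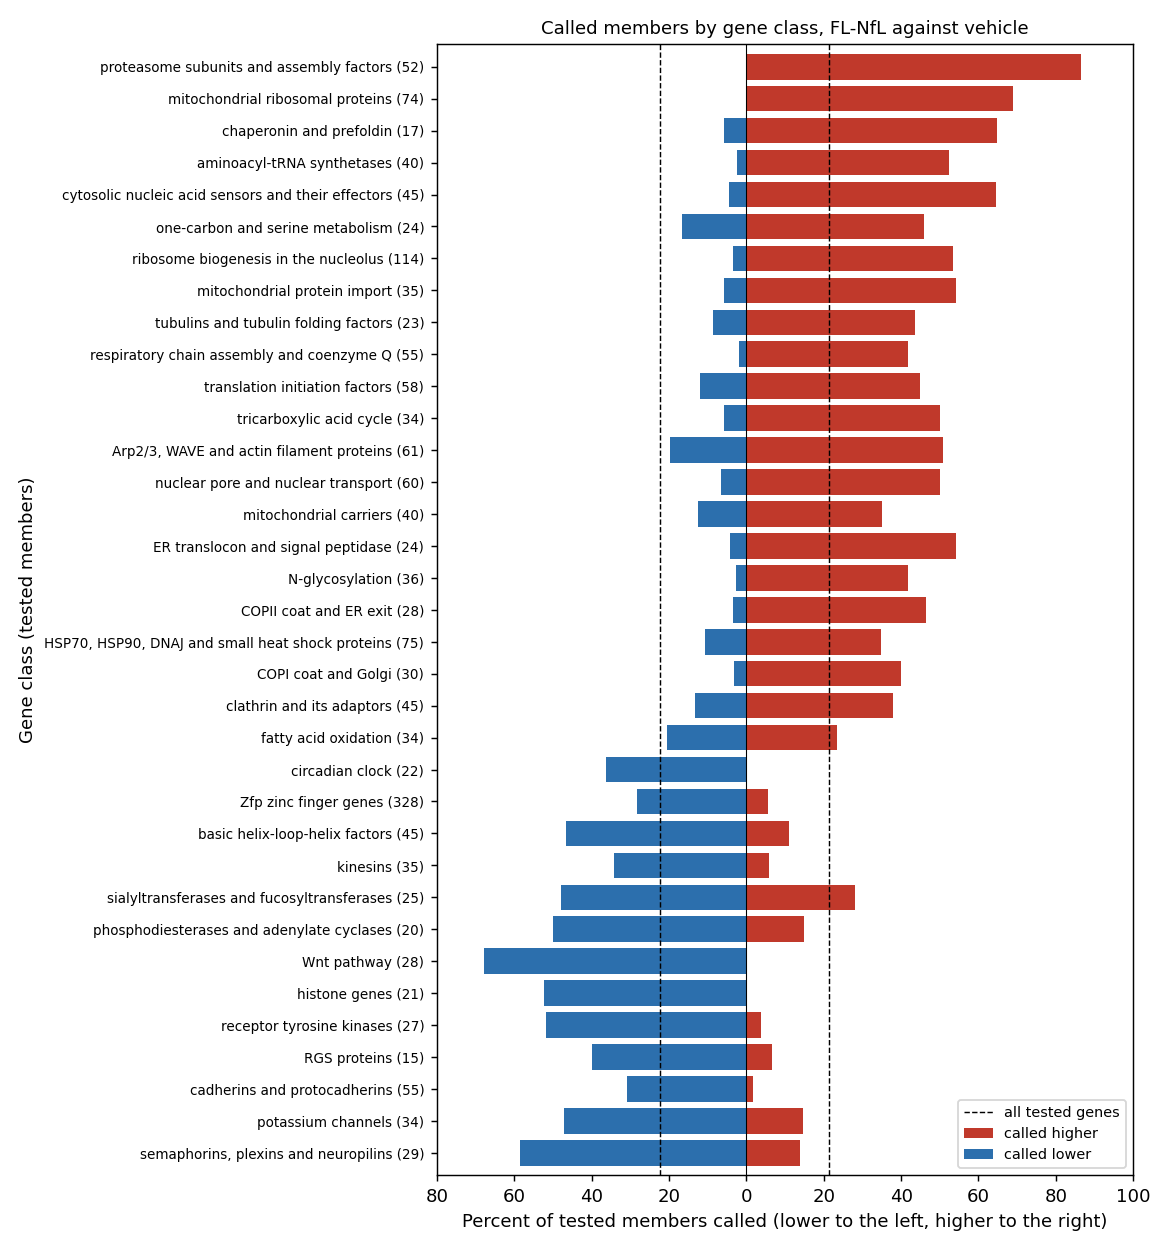
Percent of tested members called higher (red, to the right) and lower (blue, to the left) with full-length NfL against vehicle in 35 gene classes, with the number of tested members in brackets and the shares over all tested genes (21.4% higher, 22.4% lower) as dashed lines. Classes are ordered by their median log2 change, from proteasome genes at the top to semaphorins, plexins and neuropilins at the bottom.

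Among receptors and modifiers of signalling, falls outnumbered rises, many of them at low levels. The classes of signalling together had 192 of 498 members lower and 93 higher. The counts were nearly even among the 268 members of at least 20 CPM, with 88 lower and 75 higher, and once the trend on GC content and length was taken out, with 142 lower and 137 higher. The Wnt pathway, in which secreted ligands stabilise beta-catenin, had 19 of 28 tested members lower and 0 higher, with a median of -0.53 and medians within batches of -0.32, -0.42, -0.48 and -0.60. Without the batch block 8 were lower, and 15 were lower and 5 higher once the trend on GC content and length was taken out. Among the 12 members of at least 20 CPM, 6 were lower. Fzd7, a Wnt receptor, stood at 47.4, 54.2, 47.9 and 64.4 CPM with vehicle and at 28.7, 22.7, 24.1 and 22.9 CPM with full-length NfL. Ctnnb1, beta-catenin itself, had 999.9, 780.2, 734 and 796 CPM with vehicle and 598, 456, 489.6 and 500.3 CPM with the protein. Neither gene overlapped between the groups, and they fell (log2 changes -1.12 ± 0.12 and -0.69 ± 0.068).

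Ligands and receptors of axon guidance, the semaphorins, plexins and neuropilins, had 17 of 29 members lower and 4 higher (median -0.80), and 7 lower without the batch block. Plxna2, a plexin, and Plxdc1, a protein with a plexin domain, fell (log2 changes -0.88 ± 0.087 and -0.96 ± 0.082). Sema4c, a membrane-bound semaphorin, rose by 0.83 ± 0.10. Receptor tyrosine kinases had 14 of 27 lower and 1 higher (median -0.64), and 4 lower without the block. Igf1r, the receptor for insulin-like growth factor 1, fell from 43.7 ± 8.71 to 22.7 ± 3.66 CPM (SD, n = 4), and Flt1, a receptor of VEGF, fell with overlap of the groups (log2 change -1.14 ± 0.17). These classes, like cadherins and potassium channels, hold genes that neurons and astrocytes also express. The neuron and astrocyte marker sums, without TMM factors, were lower in all 4 full-length libraries. They stood at 21.6 to 56.4 and 26.9 to 58.4 CPM, against 34.2 to 127 and 31.3 to 107 CPM with vehicle. The part of such cells in these falls was not tested. Among the 12 guidance genes of at least 20 CPM 8 were lower and 3 higher, and among the 6 receptor kinases of that level 3 were lower and 0 higher.

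Cadherins and protocadherins had 17 of 55 members lower and 1 higher, with a median member at 1.19 CPM, and potassium channels 16 of 34 lower and 5 higher at 1.07 CPM. Without the batch block, 2 cadherins and 5 potassium channels were lower. Kcnj10, an inward rectifier known from astrocytes, stood at 33.9, 38.2, 32.3 and 36.5 CPM with vehicle and at 16.4, 14.3, 9.04 and 15.0 CPM with full-length NfL. Its libraries did not overlap between the groups, and it fell (log2 change -1.38 ± 0.13). Kcnab2, a channel subunit, rose by 1.13 ± 0.12. Calcium channels split, with 11 of 46 members higher and 17 lower. Trpm2, a channel opened by oxidants, had 10.8, 8.29, 14.7 and 7.61 CPM with vehicle and 38.5, 49.1, 47.3 and 54.8 CPM with the protein, without overlap, and rose by 2.19 ± 0.29, while Atp2b1, a pump that expels calcium, fell (log2 change -0.57 ± 0.062).

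Proteins that end G protein signals were more often lower. Of 15 tested RGS proteins, which speed the shut-off of G proteins, 6 were lower and 1 higher, with a median of -0.69. Without the batch block 3 were lower. Their median member stood at 2.17 CPM, and of the 5 of at least 20 CPM, 2 were lower and 1 higher. Rgs2 stood at 200.4, 266, 274 and 266 CPM with vehicle and at 99.6, 84.3, 150.5 and 117 CPM with full-length NfL, and Rgs10, abundant in microglia, at 172, 150.1, 211 and 173 and 110.0, 95.9, 127 and 104 CPM. The groups were apart in both, and the log2 changes were -1.18 ± 0.12 and -0.69 ± 0.065. Phosphodiesterases and adenylate cyclases, which destroy and make cyclic nucleotides, had 10 of 20 members lower and 3 higher (median -0.45), and 5 lower without the block. Among the 10 members of at least 20 CPM, 4 were lower and 3 higher (median -0.11). Pde1c and Pde3b fell (log2 changes -2.24 ± 0.31 and -0.61 ± 0.090), and Adcy7, a cyclase of leukocytes, rose by 0.54 ± 0.078. Dual specificity phosphatases, brakes on MAP kinases, had 7 of 20 lower and 3 higher, and 4 lower and 4 higher once the trend on GC content and length was removed. Dusp7 and Dusp6 fell (log2 changes -0.71 ± 0.060 and -0.56 ± 0.078).

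Other signalling genes moved singly. Adgre1, which encodes the macrophage antigen F4/80, stood at 2187, 2141, 2409.8 and 1924 CPM with vehicle and at 8148, 9009.7, 6805 and 8416 CPM with full-length NfL. Its 4 treated libraries were above all vehicle libraries, and it rose by 1.89 ± 0.18 (adjusted p = 4.38e-05). Among receptors named Gpr or Adgr, 18 of 49 were lower and 8 higher. Prkcb, a protein kinase C of leukocytes, rose by 1.36 ± 0.15, Pik3r5, a regulator of the PI3 kinase downstream of chemokine receptors, by 0.98 ± 0.13, Socs3, a feedback inhibitor of cytokine receptors, by 1.09 ± 0.15, and Ptprm, a receptor phosphatase, by 1.86 ± 0.19. Serpine2, an inhibitor of extracellular proteases, fell from 56.6 ± 19.3 to 18.3 ± 5.04 CPM (SD, n = 4), and Timp2, an inhibitor of matrix metalloproteases, fell as well (log2 change -0.81 ± 0.075). Tspan3 rose by 1.01 ± 0.069 and Anxa2, which binds membranes and plasminogen, by 0.90 ± 0.093.

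Sensors of foreign or misplaced nucleic acid were more often higher, with much variation between batches. Cytosolic nucleic acid sensors and their effectors had 29 of 45 members higher and 2 lower, with a median of 0.31. Only 4 of the 45 were higher without overlap between the groups, against 14.5% of all tested genes. Without the batch block 11 were called higher. The medians within batches 1 to 4 were 0.34, 0.27, 0.16 and 0.64. Oasl1, of the family that senses double-stranded RNA, stood at 14.6, 39.3, 76.8 and 18.5 CPM with vehicle and at 65.4, 149.8, 168 and 134 CPM with full-length NfL. Vehicle replicate 3 reached into the treated range, and the log2 change was 1.95 ± 0.27.

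In cell death, Mlkl, which ruptures the membrane in necroptosis, had 19.2, 23.2, 41.3 and 14.5 CPM with vehicle and 42.2, 73.0, 80.4 and 67.0 CPM with the protein, without overlap, and rose by 1.44 ± 0.20. Cflar, which restrains caspase 8, and Bak1, which opens the mitochondrial outer membrane, rose by 0.75 ± 0.14 and 0.66 ± 0.10, both with overlap. Bmf, a sensor protein that starts apoptosis, stood at 84.4, 59.2, 71.0 and 55.3 CPM with vehicle and at 43.8, 26.8, 44.1 and 28.8 CPM with full-length NfL. It fell (log2 change -0.93 ± 0.071), and Casp2, a caspase of genotoxic stress, fell too (log2 change -0.60 ± 0.077).

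In the nucleus, genes of the pore were often higher and histone transcripts lower. Nuclear pore and transport genes had 30 of 60 members higher and 4 lower (median 0.19). Xpo1, the main export receptor, rose by 0.50 ± 0.065, and Nup50 and Tpr, of the pore, by 0.46 ± 0.057 and 0.53 ± 0.070. The core spliceosome had 23 of 75 higher and 5 lower, with Snrpa1 up by 0.83 ± 0.082. Polyadenylated histone transcripts had 11 of 21 tested members lower and 0 higher (median -0.59). Hist1h1c, a linker histone, stood at 89.0, 79.5, 58.8 and 95.6 CPM with vehicle and at 49.6, 30.3, 30.2 and 39.3 CPM with full-length NfL, without overlap, and fell (log2 change -1.12 ± 0.10) (adjusted p = 3.42e-05), and H1f0, another linker histone, fell (log2 change -0.77 ± 0.090). Most histone messengers lack a poly(A) tail, and the libraries were made from polyadenylated RNA.

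Zinc finger and basic helix-loop-helix genes were more often lower. The classes of transcription factors together, without the Zfp genes, had 62 of 179 members lower and 29 higher, which turned to 43 lower and 46 higher once the trend on GC content and length was taken out. Of 328 zinc finger genes named Zfp, 93 were lower and 18 higher, with a median of -0.15, and 66 lower and 45 higher once the trend on GC content and length was taken out. Basic helix-loop-helix factors had 21 of 45 lower and 5 higher (median -0.32), and 9 and 3 without the batch block. Id3, an inhibitor of such factors, and Mxi1, an antagonist of Myc, fell (log2 changes -0.62 ± 0.058 and -1.05 ± 0.11). Leucine zipper factors of the C/EBP, ATF and MAF kind had 14 of 39 members higher and 10 lower. Among them Cebpa, a factor of myeloid differentiation, stood at 243, 212, 221 and 236 CPM with vehicle and at 112, 94.6, 86.6 and 98.0 CPM with full-length NfL. The groups did not overlap, and Cebpa fell (log2 change -1.23 ± 0.12). Foxo4, a forkhead factor held back by insulin signalling, fell (log2 change -0.65 ± 0.060), as did Rora, a nuclear receptor of the circadian clock (log2 change -1.25 ± 0.14). The clock genes had 8 of 22 lower and 0 higher, and 4 lower without the batch block. With the trend on GC content and length removed, 8 clock genes were lower and 5 higher. Ets2 rose from 145 ± 28.2 to 330.0 ± 83.8 CPM (SD, n = 4), a log2 change of 1.16 ± 0.16, and Klf2 by 1.12 ± 0.14.

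**Figure D4:**
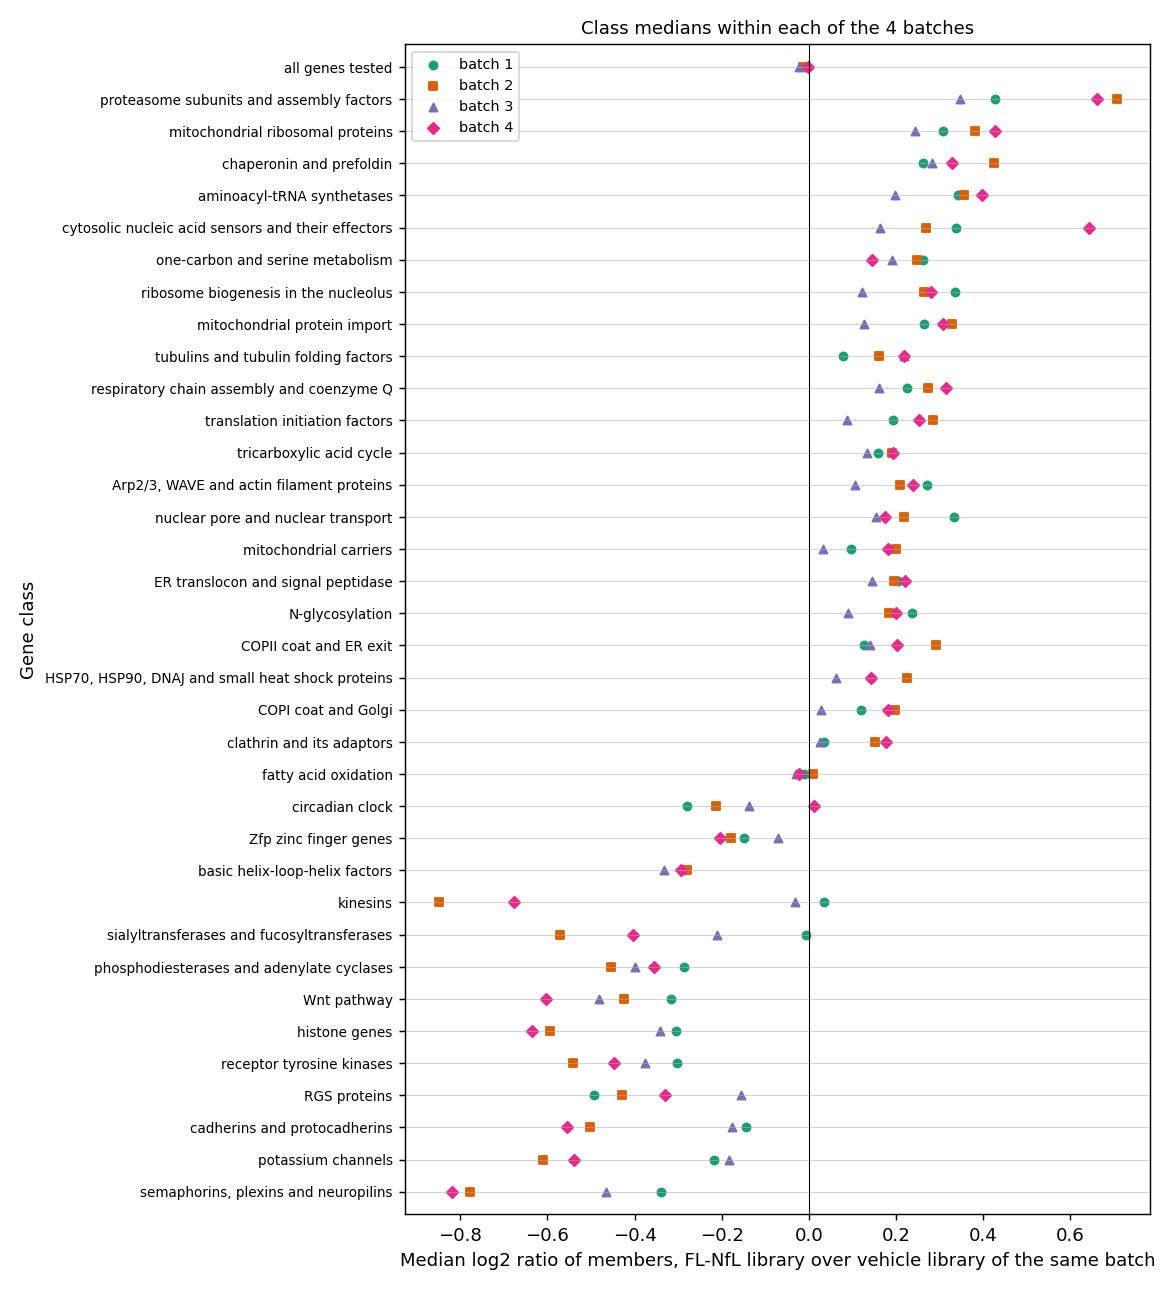
Median log2 ratio of the members of each class (horizontal axis) between the full-length and the vehicle library of the same batch, with 1 marker per batch and 1 row per class. All genes tested lie close to 0 in every batch, proteasome genes, aminoacyl-tRNA synthetases and mitochondrial ribosomal proteins lie above 0 in all 4, and kinesins, cadherins and potassium channels are lowest in batches 2 and 4.

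Processed pseudogenes and long intergenic RNAs were called at or below the shares of all tested genes, 21.4% higher and 22.4% lower. Of 1043 tested processed pseudogenes, which are copies of messengers of other genes, 191 (18.3%) were higher and 36 lower, with a median of 0.15 that moved to 0.035, with 137 higher and 63 lower, once the trend on GC content and length was taken out. Many of their reads may come from the parent genes. Of 262 long intergenic RNAs, 58 (22.1%) were lower and 27 higher (median -0.27). Protein-coding genes were called in 2848 higher and 3051 lower of 12380.

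In several large classes rises and falls were about equally frequent. Over all tested genes 21.4% were higher and 22.4% lower. Of 90 genes of DNA repair, 11 (12.2%) were higher and 8 (8.89%) lower, both below those shares. The DNA repair medians within batches 1 to 4 were 0.13, -0.23, 0.077 and -0.14. Of 81 genes of messenger deadenylation and decay, 14 were higher and 17 lower. Ubiquitin-specific proteases, which remove ubiquitin, had 17 of 61 members higher and 15 lower, and Rab GTPases, which direct vesicles, 8 of 47 higher and 11 lower. TRIM ubiquitin ligases had 10 of 44 higher and 9 lower, of which 1 and 4 were called without the batch block.

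Set directly against the coiled-coil protein, full-length NfL gave 1321 higher (8.99% of tested genes) and 1485 lower genes (10.1%). Full-length libraries stand in both contrasts, so this difference is no independent evidence of the changes above. Of the 12 largest rises, 7 were also higher than with CC-NfL, and of the 12 largest falls, 12 were lower. Fgl2 was higher by 1.89 ± 0.35 on the log2 scale (adjusted p = 0.00547) and Hpgd lower, with a difference of -1.66 ± 0.17 (adjusted p = 0.000439). For Saa3, Fpr1 and Fpr2 the differences were 1.02 ± 0.40, 0.99 ± 0.32 and 0.76 ± 0.36, and their adjusted p of 0.0965, 0.0546 and 0.161 missed the threshold, which does not show that the forms act alike. Of 52 proteasome genes, 35 were higher than with CC-NfL, of 74 mitochondrial ribosomal genes 14, of 40 aminoacyl-tRNA synthetases 13, and of 45 nucleic acid sensors 3. Among the 29 guidance genes 11 were lower and 2 higher, and among the 28 Wnt genes 7 were lower and 0 higher. Without the batch block this contrast gave 202 higher and 197 lower genes, and leaving out 1 library gave 557 to 1529 higher and 642 to 1572 lower, with the fewest of both when FL-NfL replicate 4 was left out. The counts were 591 and 674 with FL-NfL replicate 2 left out, 611 and 653 with CC-NfL replicate 1 left out, and 628 and 742 with CC-NfL replicate 3 left out.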

How the data were processed

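Polyadenylated RNA of 12 libraries was read as single-end 50-base reads, per the labels. The authors deposited 1 table of whole-number counts per Ensembl gene, and the submitters' processing notes name GSNAP and GRCm38. For the version of the aligner, and for the tool, annotation and strandedness of counting, the entry is: not given in the sources used here. Total counts ran from 20162427 to 31048044.

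Counts as deposited were fitted with edgeR 4.0.16 in R 4.3.3 (filterByExpr, TMM factors, quasi-likelihood F test, Benjamini-Hochberg adjustment over 14687 genes) with group and batch as terms over all 12 libraries, which left 6 residual degrees of freedom. The fitting code was tested on simulated data. The labels give the replicate number as the batch: deviations from the group means of full-length and vehicle libraries of the same number correlated at 0.3125 to 0.7155 (4 pairs), and of other numbers at -0.4528 to 0.4448 (12 pairs).

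Symbols, gene types, coordinates, lengths and GC content came from GENCODE M21 (GRCm38), and promoter windows from RefSeq GRCm38.p6. Genes named are the 12 largest called rises and falls of at least 20 CPM with 1 direction in all 4 batches, and, from each class, up to 3 called members of at least 5 CPM with the smallest p in the direction with more calls and 1 in the other, leaving out genes whose call an alternative ended. The 106 classes, 7 of them marker lists, and the genes passed over were chosen with earlier results of these data known. Classes are given by counts and medians without a test, and a few results are not reported here. Alternatives were the fit without the block, DESeq2 1.42.0, other scaling factors and filters, removal of the trend on GC content and length, the 8 libraries alone, and leaving out each library.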

Additional observations from a re-analysis of the deposited data

Results flagged for a closer look

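In 20 of 302 groups of 4 libraries tested, 1 library lay far from the other 3, and chance does so in about 1 in 20 groups. Vehicle replicate 3 stood apart for Aldh18a1 (18.4 CPM, nearest other library 22.3), Bak1 (114.8, nearest 84.2), Casp2 (48.3, nearest 40.8), Dock2 (583, nearest 439.7), Igf1r (30.7, nearest 47.2), Klra2 (7.63, nearest 3.21), Ms4a4c (66.0, nearest 19.4) and Slfn1 (21.5, nearest 5.36). Vehicle replicate 1 stood apart for Cct8 (167, nearest 186), Cd28 (64.2, nearest 115), Lox (65.2, nearest 15.9) and Rgs2 (200.4, nearest 266). Full-length replicate 1 stood apart for Cd9 (147.8, nearest 83.8), Fgl2 (489, nearest 1061), Myo10 (92.9, nearest 62.7) and Slc25a23 (13.4, nearest 7.26). Full-length replicate 3 stood apart for Mdh2 (206, nearest 231.5), Rrp12 (18.4, nearest 28.1) and Tubb2a (56.6, nearest 73.6). It also stood apart for the summed astrocyte markers (26.9 CPM without TMM factors, nearest 53.9). The fall of Cd28 and the rise of Lox kept an adjusted p under 0.05 in edgeR's quasi-likelihood test with each of these libraries left out in turn.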

How the results depend on the processing

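Without the replicate block, full-length NfL against vehicle gave 2062 higher and 1594 lower genes, 56.4% of calls on the higher side in place of 48.9%, and full-length against coiled-coil NfL gave 202 and 197. The share on the higher side was 61.5% with the trend on GC content and length removed, 40.5% with upper-quartile factors (2633 higher and 3870 lower) and 50.7% without a filter on low counts. Removal of that trend also gave 2332 genes higher than with coiled-coil NfL, and 22 classes changed the sign of their median, among them F-box proteins and cullins, Rab GTPases, DNA repair and TRIM ligases. Leaving out 1 library at a time gave 2411 to 3243 higher and 2355 to 3265 lower genes against vehicle, with 48.6% to 50.6% on the higher side. It gave 557 to 1529 higher and 642 to 1572 lower genes against coiled-coil NfL. The fit to the 8 libraries alone gives no value against coiled-coil NfL. The cause of these differences was not tested. The naming rule gives 419 genes, of which 73 lost their call under at least 1 of the 20 alternatives; the 144 genes named in the text were taken from the 346 that kept it, so their stability is a matter of choice. Depth limits the classes of low members: a median of 1.07 CPM for potassium channels leaves few counts in each library.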
